A study of Mus musculus with 4 samples.

Results

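WNT signalling was examined in forelimbs of mouse embryos with and without Shox2 through 10 genes. Of these, 6 are transcriptional responses to beta-catenin (Axin2, Lef1, Tcf7, Nkd1, Nkd2 and Sp5) and 4 belong to planar cell polarity (Ror1, Ror2, Prickle1 and Vangl2). The genes were chosen by name, with earlier results of these data known. A probe set was matched to 9 of them, out of 23185 named probe sets in the table. The level of Tcf7 was not analysed here. The samples were forelimbs of C57BL/6 embryos taken at stage E11.5 of gestation and pooled by genotype, wild type or Shox2 knockout, with 2 arrays per genotype. Each pool held limbs of 3 to 4 embryos by the series text (3 to 4 forelimbs by the sample labels), and the embryos came from 2 pregnancies. The arrays carry the numbers 48 and 50 in their titles, once in each genotype. How the Shox2 allele was made, whether the loss is confined to a tissue and the sex of the embryos are not given in the sources used here. Values are log2 expression, so that a difference of 1 is a doubling, and every difference below is knockout minus wild type.

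WNT proteins are secreted signals that bind Frizzled receptors. In the canonical branch they keep beta-catenin from being degraded, and beta-catenin then enters the nucleus, binds DNA-bound TCF and LEF proteins and raises transcription of a set of genes, several of which dampen the pathway in turn. In the polarity branch, ligands such as Wnt5a act through Ror receptors, Vangl and Prickle proteins to orient cells in a sheet or mesenchyme without beta-catenin. In the limb bud, canonical signals from the ectoderm keep the outer mesenchyme undifferentiated, and Wnt5a with Ror2 and Vangl2 is needed for elongation of the limb.

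The 250 bases before the RefSeq transcription start (build GRCm38.p6) were searched for a core of the TCF and LEF site, CTTTGAT, and for a homeodomain core, TAATTA, on both strands. The first was searched as a form of the element through which beta-catenin reaches its targets, and the second because Shox2 is a homeodomain protein. Neither core lies within the other, and TAATTA reads the same on both strands. The 10 genes had 15 such windows, as Lef1, Tcf7 and Prickle1 have several starts. CTTTGAT was found in 1 of the 15, that of Sp5, and in 3.21% of all 32851 windows. TAATTA was found in 0 of the 15 and in 4.84% of all windows. The Sp5 window is shown because it alone held a searched core (capitals, bases -104 to -98 before the start), and those of Nkd2 and Ror1 because these genes had the largest differences between the genotypes. The windows lie at chr2:70474673-70474922 (plus strand), chr13:73847632-73847881 (minus strand) and chr4:100095541-100095790 (plus strand), and each is written 5′ to 3′ along its gene.
Sp5: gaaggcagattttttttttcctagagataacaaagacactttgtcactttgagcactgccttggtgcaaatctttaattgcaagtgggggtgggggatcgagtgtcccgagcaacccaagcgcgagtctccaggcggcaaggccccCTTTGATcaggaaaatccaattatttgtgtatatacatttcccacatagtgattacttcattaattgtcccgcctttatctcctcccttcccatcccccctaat
Nkd2: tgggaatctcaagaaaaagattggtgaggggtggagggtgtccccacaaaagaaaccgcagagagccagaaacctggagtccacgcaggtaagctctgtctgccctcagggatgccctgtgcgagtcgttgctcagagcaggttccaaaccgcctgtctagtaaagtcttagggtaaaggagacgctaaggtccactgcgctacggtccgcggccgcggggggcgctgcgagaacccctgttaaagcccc
Ror1: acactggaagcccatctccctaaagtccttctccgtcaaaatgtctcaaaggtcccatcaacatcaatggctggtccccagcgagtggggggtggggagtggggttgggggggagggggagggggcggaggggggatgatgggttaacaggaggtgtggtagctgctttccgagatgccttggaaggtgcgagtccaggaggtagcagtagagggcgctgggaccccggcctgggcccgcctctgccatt
The G and C content of these 3 windows was 46.0% for Sp5, 58.4% for Nkd2 and 62.4% for Ror1, with 6, 14 and 8 CpG dinucleotides. A match is a description of the letters, and its absence here covers only these windows and these exact spellings. Other spellings of either site were not searched.

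Named genes above a brightness limit, 14095 in number, were compared with limma, a linear model with variances moderated across genes, and p-values were adjusted over all of them by the Benjamini-Hochberg method. In all, 3 genes (0.0213%) passed an adjusted p of 0.05, all higher in the knockout: the Y-linked Eif2s3y, Uty and Kdm5d, at log2 differences of 3.48 to 4.29. These 3 genes read 8.83 to 9.65 in the knockout pools and 5.08 to 5.56, below the brightness limit, in the wild-type pools. The X-linked Xist, named after its value was seen, read 12.00 and 11.68 in the knockout pools and 12.83 and 12.88 in the wild-type pools. The genotypes thus differed in sex-linked signal, and the sex make-up of the pools cannot be told apart from genotype in any difference below. Shox2 itself read 9.58 and 8.88 in the knockout (numbers 48 and 50), against 10.57 and 10.37 in the wild type. Its difference was -1.24 ± 0.21 (SE; limma, adjusted p = 0.322), so the targeted gene did not pass the test either. The forelimb marker Tbx5 lay between 12.25 and 12.48 on the 4 arrays. The hindlimb marker Pitx1 was below the brightness limit of 5.60, and all 10 limb mesenchyme markers were above it. Another hindlimb marker, Tbx4, was also above the limit. Tbx4 read 7.42 and 7.18 in the knockout pools and 6.76 and 6.77 in the wild-type pools. The Tbx4 difference was 0.54 ± 0.10 (SE; limma, adjusted p = 0.322), and its cause was not tested. The hindlimb markers thus did not all read as absent.

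None of the 9 WNT genes passed the test over all genes (limma, adjusted p from 0.404 to 0.934). Nkd2 was measured 1.24-fold higher and Ror1 1.19-fold lower in the knockout, and the other 7 lay within 0.10 log2 units of no difference. At an unadjusted p under 0.05, Nkd2 (higher) and Ror1 (lower) were 2 of the 9, where 10.2% of all tested genes reached that level, 5.19% higher and 5% lower. In 6 of the 9 both pools of a genotype lay above both of the other, against 42% of all tested genes: Lef1, Nkd2 and Sp5 were higher in both knockout pools, as were 22.1% of all tested genes, and Ror1, Ror2 and Prickle1 lower, as were 19.9%. In size, the differences of Nkd2 and Ror1 stood at percentiles 95.01 and 90.6 of the absolute differences of all tested genes, and those of the other 7 between percentiles 21.2 and 55.6. The median absolute difference was 0.071 over the 9 genes and 0.083 over all tested genes.

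All 5 measured beta-catenin response genes had higher means in the knockout and 3 of the 4 polarity genes lower means. The median difference was 0.071 for the response genes and -0.069 for the polarity genes, beside -0.00098 for all tested genes, of which 49.6% had a higher mean in the knockout. These are counts of direction, since single members did not pass the test.

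**Figure D1:**
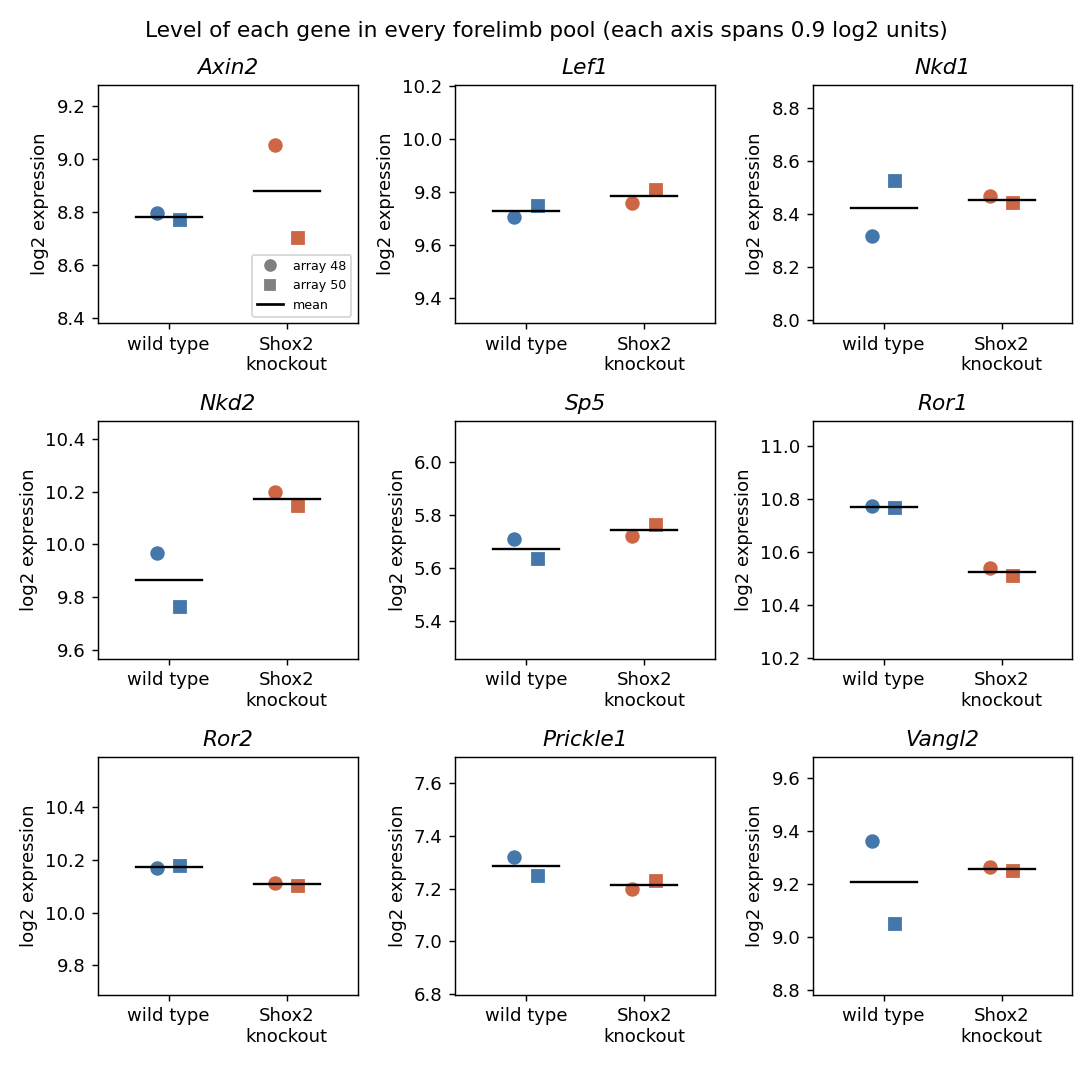
Log2 expression of each of the 9 genes in the 2 wild-type pools (blue) and the 2 Shox2 knockout pools (orange), with circles for arrays numbered 48, squares for arrays numbered 50 and a bar for the mean; every axis spans the same 0.9 log2 units. Nkd2 and Ror1 show the widest gaps between genotypes, while Axin2, Nkd1 and Vangl2 overlap.

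Nkd2 and Nkd1 encode the Naked cuticle proteins, which bind Dishevelled and restrain WNT signalling. Nkd2 (Entrez Gene 72293) read 10.20 and 10.14 in the knockout pools 48 and 50 and 9.97 and 9.76 in the wild-type pools. Both knockout pools were above both wild-type pools, and the wild-type pools were the more spread. The means were 10.17 ± 0.038 and 9.86 ± 0.15 (SD, n = 2 pools each), a difference of 0.31 ± 0.096 (SE; 95% interval 0.077 to 0.54; limma, unadjusted p = 0.0166, adjusted p = 0.404). With any single array left out the Nkd2 difference stayed positive, between 0.20 and 0.41.

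Nkd1 (Entrez Gene 93960) read 8.47 and 8.44 in the knockout pools and 8.32 and 8.53 in the wild-type pools. The wild-type pools lay on either side of the knockout pools. The difference was 0.033 ± 0.096 (SE; 95% interval -0.20 to 0.26; limma, adjusted p = 0.934), and without wild-type array 48 it was -0.072. The log2 ratio of Nkd2 to Nkd1 within an array was 0.27 higher in the knockout, by 0.080 between the pools numbered 48 and 0.47 between the pools numbered 50. The 2 genotypes did not overlap in this ratio, and an exact two-sided permutation test gave p = 0.333, the smallest that 2 against 2 arrays can give. It was the first of 3 ratios between related genes computed in this way after the values were seen, all with this p.

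Axin2, a scaffold of the complex that degrades beta-catenin, is widely used as a readout of canonical signalling because it is induced by it. Axin2 (Entrez Gene 12006) read 9.05 and 8.70 in the knockout pools and 8.80 and 8.77 in the wild-type pools. The wild-type pools were close together and fell between the knockout pools, of which number 48 was the highest and number 50 the lowest of the 4. The difference was 0.095 ± 0.12 (SE; 95% interval -0.20 to 0.39; limma, adjusted p = 0.836). It was -0.080 without knockout array 48 and 0.27 without knockout array 50, so its direction rested on a single pool. On the fold scale the interval's upper end corresponds to less than the 1.5-fold mark, which 0.404% of all tested genes reached.

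Lef1, a DNA-binding partner of beta-catenin that is itself induced by the pathway, had the narrowest range over the 4 arrays among the response genes. Lef1 (Entrez Gene 16842) read 9.76 and 9.81 in the knockout pools and 9.71 and 9.75 in the wild-type pools. The knockout pools were above the wild-type pools, but the nearest pools of the 2 genotypes were closer to each other than pools of the same genotype. The difference was 0.057 ± 0.079 (SE; 95% interval -0.13 to 0.25; limma, adjusted p = 0.844).

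Sp5, a zinc finger transcription factor and direct target of beta-catenin, lay nearest to the brightness limit. Sp5 (Entrez Gene 64406) read 5.72 and 5.76 in the knockout pools and 5.71 and 5.63 in the wild-type pools, at percentile 44.5 of all probe sets against a limit of 5.60. The knockout pools were above the wild-type pools by less than the 2 wild-type pools differed from each other. The difference was 0.071 ± 0.080 (SE; 95% interval -0.12 to 0.26; limma, adjusted p = 0.812). Values this close to the floor of the array are compressed, so a change in Sp5 could be larger than it reads here.

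Ror1 and Ror2 encode receptor tyrosine kinases that bind Wnt5a. Ror1 (Entrez Gene 26563) read 10.54 and 10.51 in the knockout pools and 10.77 and 10.77 in the wild-type pools. The 4 values fell into tight pairs by genotype, with both knockout pools lower. The means were 10.52 ± 0.022 and 10.77 ± 0.0055 (SD, n = 2 pools each), a difference of -0.25 ± 0.077 (SE; 95% interval -0.43 to -0.062; limma, unadjusted p = 0.0165, adjusted p = 0.404). With any single array left out it lay between -0.26 and -0.23, the narrower range of the 2 genes with an unadjusted p under 0.05.

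Ror2 (Entrez Gene 26564) read 10.11 and 10.10 in the knockout pools and 10.17 and 10.18 in the wild-type pools. Its pools were also tightly paired by genotype, with the knockout lower, but by a smaller amount. The difference was -0.067 ± 0.077 (SE; 95% interval -0.25 to 0.12; limma, adjusted p = 0.815). The moderated SE was larger than the spread of these 4 values, since the fit borrows the variance of other genes. The log2 ratio of Ror1 to Ror2 was lower by 0.18 in the knockout, with changes of -0.18 between the arrays of either number and SDs of 0.015 and 0.0097 over the 2 arrays of knockout and wild type. The genotypes did not overlap in it (exact two-sided permutation p = 0.333, the smallest possible).

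Prickle1, a cytoplasmic polarity protein, and Vangl2, the membrane protein it binds, gave small differences of opposite sign. Prickle1 (Entrez Gene 106042) read 7.20 and 7.23 in the knockout pools and 7.32 and 7.25 in the wild-type pools. The knockout pools were lower, by less than the wild-type pools differed from each other. The difference was -0.071 ± 0.080 (SE; 95% interval -0.26 to 0.12; limma, adjusted p = 0.809).

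Vangl2 (Entrez Gene 93840) read 9.26 and 9.25 in the knockout pools and 9.36 and 9.05 in the wild-type pools. The knockout pools lay together between the wild-type pools. The difference was 0.050 ± 0.12 (SE; 95% interval -0.23 to 0.33; limma, adjusted p = 0.916). It was -0.11 without wild-type array 50 and 0.21 without wild-type array 48. Its relative Vangl1, named below, was lower in both knockout pools, and the log2 ratio of Vangl2 to Vangl1 was 0.52 higher in the knockout (0.22 between arrays 48 and 0.82 between arrays 50; exact two-sided permutation p = 0.333, the smallest possible). As Vangl1 had the smallest unadjusted p of its list, this ratio largely restates the Vangl1 difference and is no separate result.

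**Figure D2:**
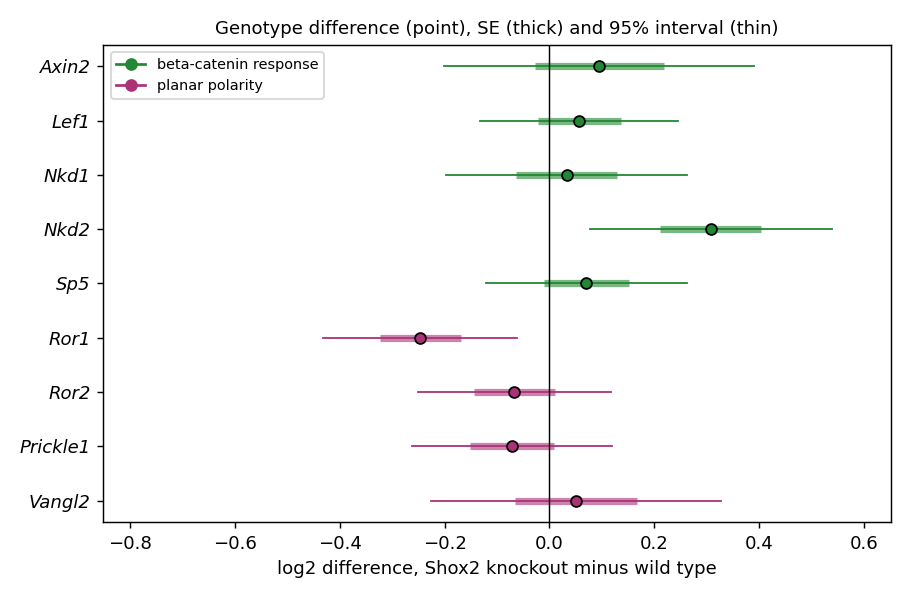
Log2 difference between Shox2 knockout and wild type for the 9 genes (point), with the moderated SE (thick bar) and 95% interval (thin bar), beta-catenin response genes in green and polarity genes in purple. Before adjustment over all genes only the intervals of Nkd2 (0.077 to 0.54) and Ror1 (-0.43 to -0.062) leave out zero.

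Between arrays of the same number the genotype difference had the same sign in 6 of the 9 genes, beside 8891 of all 14095 tested genes. The exceptions were the 3 overlapping genes. Axin2 differed by 0.26 in the pair of arrays 48 and -0.066 in the pair of arrays 50, Nkd1 by 0.15 and -0.086, and Vangl2 by -0.099 and 0.20. Nkd2 differed by 0.23 and 0.38, and Ror1 by -0.23 and -0.26. In 5 of the 9 genes (Axin2, Nkd1, Sp5, Prickle1 and Vangl2) the 2 pools of at least one genotype were farther apart than the genotype means, as in 9951 of all tested genes. The widest such gap was that of Axin2, 0.35 lower in knockout pool 50 than in knockout pool 48, followed by Vangl2, 0.31 lower in wild-type pool 50 than in wild-type pool 48.

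**Figure D3:**
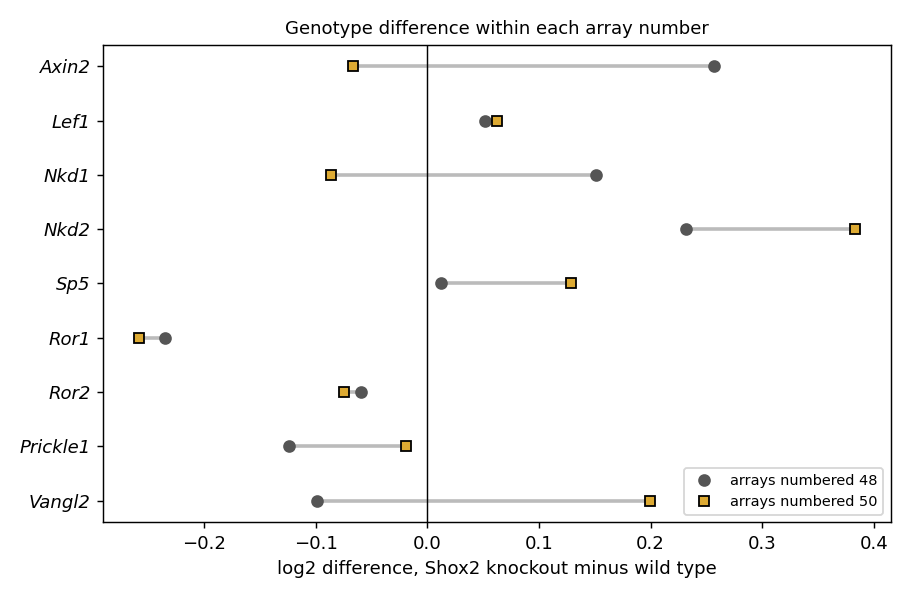
Log2 difference between knockout and wild type taken between the arrays numbered 48 (circles) and between the arrays numbered 50 (squares), joined for each gene. Ror1 (-0.23 and -0.26), Ror2 and Lef1 gave nearly the same value in both, and Axin2 (0.26 and -0.066), Nkd1 and Vangl2 lay on both sides of zero.

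The rest of the pathway was described with 7 lists holding 111 genes, of which 100 were tested. Of these 100 genes 0 passed over all genes (limma, smallest adjusted p = 0.322), and the median difference was 0.030. Means were higher in the knockout for 60 and lower for 40, where 49.6% of all tested genes were higher. An unadjusted p under 0.05 was reached by 11 of them, 6 higher and 5 lower, or 11.0% against the 10.2% of all tested genes. Unless said otherwise, the genes named below are those with the smallest unadjusted p in each list, and none passed.

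Among 15 tested ligands the median was 0.037. Wnt5a, the ligand of the Ror receptors, differed by 0.25 ± 0.087 (SE; limma, adjusted p = 0.415), reading 9.54 and 9.64 in the knockout pools and 9.29 and 9.40 in the wild-type pools, and the canonical ligand gene Wnt2b by -0.17 ± 0.082. The knockout pools were thus both higher in Wnt5a and both lower in Ror1. Among 17 receptors and co-receptors 13 had higher means, beside 49.6% of all tested genes, with a median of 0.047. The R-spondin receptor gene Lgr5, also a beta-catenin target, differed by 0.32 ± 0.14 and the Frizzled gene Fzd9 by 0.18 ± 0.089.

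The widest differences lay among R-spondins and secreted inhibitors, around a median of 0.031. An unadjusted p under 0.05 was reached by 6 of 16 tested genes, 3 in each direction, beside 10.2% of all tested genes. This list, too, was chosen with earlier results of these data known. Rspo3, which strengthens WNT signalling at the receptor, differed by 0.71 ± 0.10 and Wif1, which sequesters WNT proteins, by -0.63 ± 0.11 (SE; limma, adjusted p = 0.322 for both). Named after their values were seen, the R-spondin gene Rspo1 differed by -0.49 ± 0.12 (SE) and the inhibitor gene Frzb by 0.37 ± 0.15 (SE). R-spondins and inhibitors thus each differed in both directions.

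The 15 cytoplasmic components had a median of 0.038. Axin1, the constitutive relative of Axin2, differed by 0.21 ± 0.085 and the kinase gene Gsk3a by 0.14 ± 0.098. The 11 TCF partners and nuclear cofactors had a median of 0.033, with Bcl9l, a beta-catenin coactivator, at 0.16 ± 0.080 and the corepressor Tle1 at 0.15 ± 0.080.

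Among 15 other response genes, which are also under other controls in the limb, 8 had higher and 7 lower means around a median of 0.014. Myc, a growth regulator, differed by -0.35 ± 0.11 and Lgr5 as above. Among 25 other polarity genes 13 had higher and 12 lower means around a median of 0.00024. Vangl1 read 7.22 and 7.05 in the knockout pools and 7.54 and 7.67 in the wild-type pools, a difference of -0.47 ± 0.097 (SE; limma, adjusted p = 0.322). Fuz, a gene of cilia and polarity, differed by 0.24 ± 0.080.

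**Figure D4:**
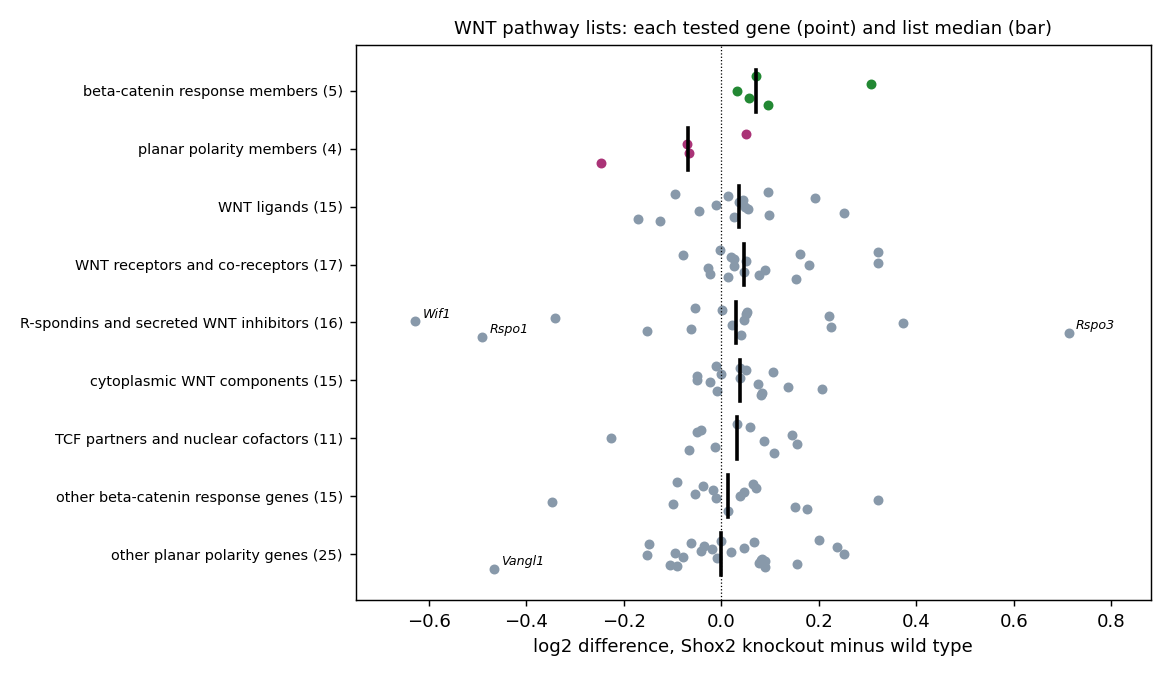
Log2 difference between knockout and wild type of every tested gene in the lists of the WNT pathway (points; number tested in brackets), with the list median (bar); names are given where the difference exceeded 0.45 in size. The medians lie between -0.069 and 0.071, and the outermost points are Rspo3 at 0.71 and Wif1 at -0.63.

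Over the 4 arrays, the genes of these lists whose values moved most like those of Axin2 were Kremen1, Dchs1 and Tcf7l1. Their mean-centred values differed from those of Axin2 by a root mean square of 0.048, 0.051 and 0.053 log2 units, the smallest of 100 genes. Dchs1 encodes a large cadherin of a polarity pathway and Tcf7l1 a TCF family member. Kremen1, a receptor for Dickkopf inhibitors, read 9.89 and 9.50 in the knockout pools and 9.56 and 9.48 in the wild-type pools, so that knockout pool 48 was again the highest. With 4 arrays this is a description.

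Lists of distal genes and of cell type markers were read in the same pools, as counts and array means with no test of a list, and their part in the values above was not tested. The array means of the genotypes did not overlap for distal, endothelial, limb mesenchyme and erythroid genes, and overlapped for ectoderm, muscle, neuron and Schwann, and macrophage genes. Of all tested genes taken singly, 42% did not overlap, and no such share was computed for list means. For erythroid genes the nearest means of the genotypes, 8.14 and 8.17, were closer than the 2 wild-type means. The 2 genes named per list are those with the smallest unadjusted p, not the largest differences. In a bulk sample, fewer cells of a type and less RNA per cell cannot be told apart. All 12 genes of a distal limb list had higher means in the knockout, beside 49.6% of all tested genes. An unadjusted p under 0.05 was reached by 10 of them, beside 5.19%. As the lists were chosen with earlier results of these data known, these counts are a description and no separate support. Their mean log2 level was 8.11 and 8.27 in the knockout pools and 7.53 and 7.72 in the wild-type pools. This list includes Wnt5a, and also Msx1, which is among the limb mesenchyme markers too. The genes with the smallest p were Hoxd12 (0.57 ± 0.090) and Sall1 (0.90 ± 0.17). The largest difference was that of Hoxd13 (1.77), named after its value was seen. Endothelial markers were tested for 13 of 13 genes, 11 of them lower in the knockout; their mean level was 7.83 on both knockout arrays against 8.002 and 7.96 in the wild type, with Kdr at -0.28 ± 0.083 and Tek at -0.27 ± 0.087. Ectoderm and ridge markers, of which 13 of 14 were tested (9 higher, 4 lower), averaged 7.34 and 7.42 in the knockout pools and 7.26 and 7.40 in the wild-type pools, with Krt18 at -0.29 ± 0.096 and Krt8 at 0.30 ± 0.10. Limb mesenchyme markers averaged 9.70 and 9.67 against 9.48 and 9.56 (10 of 10 tested, 8 higher and 2 lower; Lmx1b 0.37 ± 0.081, Hand2 0.41 ± 0.10). Erythroid markers (9 of 13 tested, 2 higher and 7 lower) averaged 8.10 and 8.14 against 8.17 and 8.33, with Slc4a1 at -0.34 ± 0.099 and Alas2 at -0.57 ± 0.17. Muscle markers (12 of 12, 5 higher and 7 lower) averaged 8.36 and 8.28 against 8.32 and 8.36, with Msc at -0.35 ± 0.11 and Tnnt1 at 0.17 ± 0.093. Neuron and Schwann markers (6 of 12, 3 higher and 3 lower) averaged 6.69 and 6.88 against 6.82 and 6.76, with Stmn2 at 0.15 ± 0.094 and Erbb3 at -0.19 ± 0.14. Macrophage markers (8 of 12, 5 higher and 3 lower) averaged 6.33 and 6.45 against 6.24 and 6.43, with C1qb at 0.40 ± 0.18 and C1qa at 0.21 ± 0.099. In these lists the ± values are SEs, and none of the genes passed over all genes in limma.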

How the data were processed

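RNA of pooled forelimbs was measured on 4 arrays, 2 per genotype, after TRIzol extraction and biotin labelling with the Affymetrix standard method, per the labels' protocols. The authors deposited 1 table of 25206 probe sets, whose values, from 5.04 to 14.1, were read as log2 expression. Their sorted values coincide within 0.00171, as after quantile normalization, which would hide a change common to most genes. The platform's annotation named 23185 probe sets, several names for 0, and left 2021 unnamed; each name had 1 probe set. The background correction and summarisation are not given in the sources used here.

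Named genes with a mean log2 level of at least 5.60 (percentile 40 of the table) were tested, 14095 in all. The genotypes were compared with limma 3.58.1 in R 4.3.3 (lmFit and eBayes, two-sided, no covariate) and adjusted by Benjamini-Hochberg at 0.05. The procedure was also run on simulated data with independent noise, which does not measure its power on these arrays. Ratios of related genes were compared by exact permutation (scipy 1.17.1), and figures were drawn with matplotlib 3.10.9. Each array is 1 pool, so limma p-values rest on the spread between pools, moderated by the variance of other genes (4.61 prior degrees of freedom). The number of arrays limits the precision. The genes and lists were chosen with earlier results of these data known. Named genes were the members and, per list, up to 3 genes past the test or else the 2 with the smallest unadjusted p. Alternatives were other filters on dim genes, renormalization, other variance models, the unnamed probe sets included, sex-linked genes left out, a block for the array number and each array left out.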

Additional observations from a re-analysis of the deposited data

How the results depend on the processing

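Under 9 settings other than leaving out an array, all 80 values of the 9 genes kept their direction and missed the threshold; Sp5 had no value under the filter at percentile 60, which it did not pass. With each array left out, 33 of 36 values kept their direction and 0 genes of the 9 passed; the ranges were -0.080 to 0.27 for Axin2, -0.072 to 0.14 for Nkd1 and -0.11 to 0.21 for Vangl2, the 3 that changed sign. The median of the response genes then ran from 0.050 to 0.11 and that of the polarity genes from -0.11 to -0.052. The number of the 9 without overlap of the genotypes rose from 6 to between 7 and 8, as a lone array overlaps less easily. The share of all tested genes was not computed with an array left out, so this rise is no result about the 9 genes. Over all genes, 3 were called with all arrays, 4 to 5 with an array left out, and 0 without the sex-linked genes.

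The array numbers are not said to pair the pools. Over 14095 genes the 48 minus 50 differences of the 2 genotypes correlated at r = 0.39, and with the array number as a replicate block 382 genes were called over all genes and 0 of the 9. In that blocked fit Nkd2 had an adjusted p of 0.0745 and Ror1 of 0.119 (limma), the lowest for these genes in any setting. With 2 pools per genotype, the intervals of the 7 other genes still include differences of 0.10 log2 units and more in either direction.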
